A study of Homo sapiens with 3 samples.

Results

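Interferon-stimulated antiviral genes are the genes that cells switch on after an interferon signal, and 48 of them were followed here through the RNA of HGC-27 cells, an established human line derived from gastric carcinoma. The 48 genes were taken by symbol from the deposited table, which lists 50868 genes, and each symbol was found. Total RNA was sequenced from 3 cultures at passage 6, each transfected for 48 h. One culture received an siRNA against IRF3 (titled SiIRF3), one an siRNA against YAP (SiYAP) and one a control siRNA (NC). The parental line and the 48 h transfection were common to all 3 cultures, and the labels mention neither a virus nor added interferon. There was 1 library per condition, so differences between libraries have no replicate check and none was tested. HGC-27 is 1 line, and all 3 libraries stand for it alone.

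As background, a cell that senses viral nucleic acid activates the transcription factor IRF3, which turns on type I and type III interferon genes and a few antiviral genes directly. Secreted interferon of these types binds its receptors, and the kinases JAK1 and TYK2 are activated. A complex that holds STAT2 and IRF9 then binds the interferon-stimulated response element in the promoters of the antiviral genes. Their products block virus entry, release, translation and replication. Many of these genes are also transcribed at a low level without added interferon. YAP, the coactivator restrained by the Hippo pathway, and IRF3 have both been linked to antiviral signalling.

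The response element has the core GAAANNGAAA, where N is any base, which reads TTTCNNTTTC on the opposite strand. RefSeq (GRCh38.p14) promoter windows, from 250 bases before to 50 bases after a start site, were at hand for 39 of the 48 genes. The core was found on either strand in 26 of these 39 genes (66.7%), against 1195 of the 27305 genes with a window (4.38%). The lines below give 150 bases before to 10 bases after the start site, 5′ to 3′ on the strand of the gene, with each match in capitals. They show the highest expressed genes with a window (IFITM3, BST2 and IFITM1), ISG15, the kinase EIF2AK2, which had the lowest ratio of IRF3 siRNA to control among the genes above 1 FPKM, and, as a window without a match, UBE2L6. In ISG15 and in BST2 the capitals are 2 matches that overlap.
IFITM1 (chr11:313890-314049, plus strand): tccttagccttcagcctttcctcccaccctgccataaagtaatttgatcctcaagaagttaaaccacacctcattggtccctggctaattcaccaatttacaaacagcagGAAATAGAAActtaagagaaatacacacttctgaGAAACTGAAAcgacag
IFITM3 (chr11:320851-321010, minus strand): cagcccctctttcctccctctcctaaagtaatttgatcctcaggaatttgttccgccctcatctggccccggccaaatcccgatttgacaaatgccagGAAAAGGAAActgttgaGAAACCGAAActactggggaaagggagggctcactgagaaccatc
BST2 (chr19:17405621-17405780, minus strand): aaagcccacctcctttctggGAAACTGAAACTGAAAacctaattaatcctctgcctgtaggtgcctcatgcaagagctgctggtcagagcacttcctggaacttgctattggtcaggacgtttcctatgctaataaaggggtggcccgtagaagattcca
ISG15 (chr1:1013347-1013506, plus strand): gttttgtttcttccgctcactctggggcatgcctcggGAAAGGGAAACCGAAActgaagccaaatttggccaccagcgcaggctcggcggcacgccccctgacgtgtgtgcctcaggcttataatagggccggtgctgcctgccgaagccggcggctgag
EIF2AK2 (chr2:37156971-37157130, minus strand): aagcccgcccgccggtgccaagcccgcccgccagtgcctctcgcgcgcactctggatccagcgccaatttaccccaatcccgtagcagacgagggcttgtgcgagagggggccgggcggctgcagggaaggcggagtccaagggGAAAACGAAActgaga
UBE2L6 (chr11:57567663-57567822, minus strand): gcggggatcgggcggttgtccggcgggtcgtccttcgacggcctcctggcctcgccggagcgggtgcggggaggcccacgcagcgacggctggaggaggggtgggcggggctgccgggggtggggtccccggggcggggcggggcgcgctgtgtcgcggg
IFITM1 and IFITM3, neighbours on chromosome 11, each had 2 matches, the first beginning 40 and 52 bases before the start site. The match of EIF2AK2 began 6 bases before the start site, and neither of the 2 windows of UBE2L6 held one. PARP9 and DTX3L, which lie on opposite strands, shared a single match at chr3:122564332-122564341. The core was as frequent among the genes with a mean of at least 1 FPKM (10 of 15) as among those below it (16 of 24), at 66.7% each. A match is a stretch of letters and not a binding measurement, and other forms of the element were not searched.

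Levels are given as FPKM, fragments per kilobase of gene length scaled to the total of the library, as deposited, and as raw counts. The libraries held 14941556 counts with IRF3 siRNA, 14385959 with YAP siRNA and 13949401 with control siRNA. The 48 genes took 20565 counts with IRF3 siRNA, 19220 with YAP siRNA and 19849 with control siRNA. These are 0.138% (exact Clopper-Pearson 95% interval 0.136 to 0.140), 0.134% (0.132 to 0.136) and 0.142% (0.140 to 0.144) of the counts in that order. Sequenced PCR copies are not independent molecules, so all intervals here cover counting error only. A count of 0 allows up to 3 counts, which is 0.201 CPM (counts scaled to the library total, without gene length) with IRF3 siRNA, 0.209 with YAP siRNA and 0.215 with control siRNA.

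A small group of the 48 genes was well expressed without added interferon, and most stayed below 1 FPKM as deposited. At least 1 FPKM was reached by 18 of the 48 genes with IRF3 siRNA, 19 with YAP siRNA and 20 with control siRNA. These are 37.5%, 39.6% and 41.7% of the 48, where 21.3%, 21.4% and 22.6% of all listed genes reached that level. The same 18 genes reached it in all 3 libraries, OAS3 reached it in 2 libraries, IFI44L in the control alone, and 28 genes in none. No count at all was listed for 2 of the 48 genes with IRF3 siRNA, 5 with YAP siRNA and 3 with control siRNA. The median of the 48 genes was 0.417 FPKM with IRF3 siRNA, 0.408 with YAP siRNA and 0.550 with control siRNA.

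**Figure D1:**
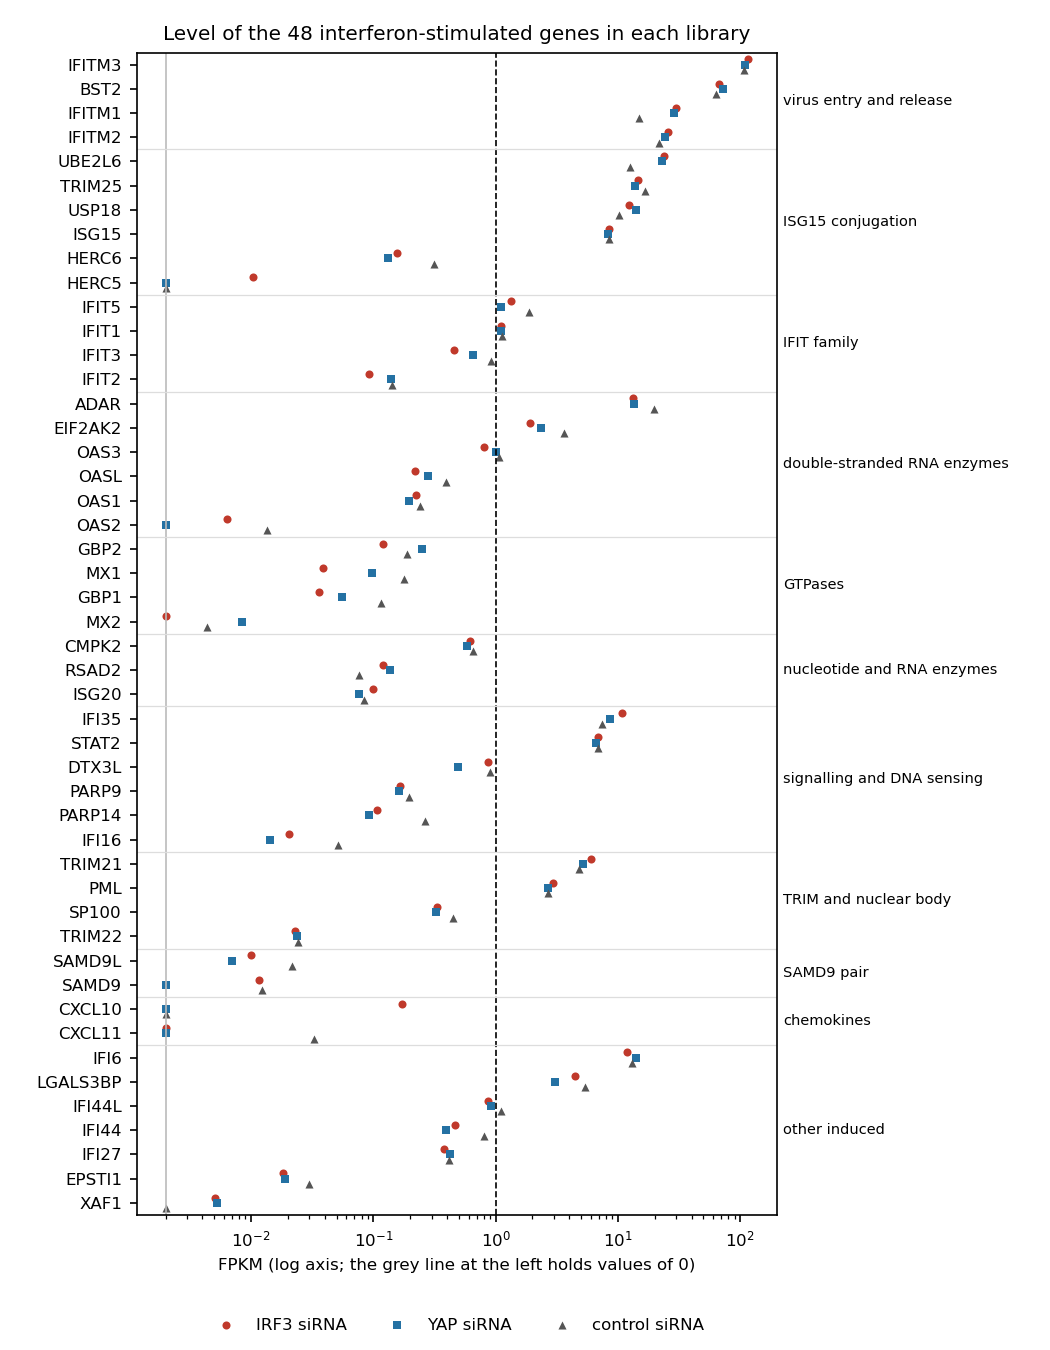
FPKM (log axis) of each of the 48 genes, grouped by role, with 1 point for each of the 3 libraries and a dashed line at 1 FPKM; values of 0 stand on the grey line. The IFITM genes and BST2 lie highest, up to 116 FPKM, and 28 genes lie left of the dashed line in all 3 libraries.

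By their mean over the 3 libraries, 9 genes stood at or above 10 FPKM, 9 between 1 and 10 and 30 below 1. Among those 30, 19 had at least 20 counts summed over the libraries. The remaining 11 (IFI16, MX2, OAS2, HERC5, SAMD9, SAMD9L, TRIM22, XAF1, CXCL10, CXCL11 and EPSTI1) had 12 summed counts or fewer each, too few to compare. The highest mean level was that of IFITM3, at 111 FPKM, followed by BST2 at 67.1, IFITM1 at 24.5, IFITM2 at 23.8 and UBE2L6 at 19.8. The gene lengths implied by the deposited FPKM were longer than the merged exon length of GENCODE release 29 by a median factor of 1.498, and by 3.71 for LGALS3BP and 2.20 for ISG15. Per merged exon length the first 5 genes kept their order, with IFITM3 at 175 FPKM and UBE2L6 at 34.1. ISG15 had a mean of 18.5 FPKM per merged exon length, against 8.39 as deposited, and LGALS3BP had 16.0, against 4.31. Deposited levels therefore order genes only roughly, while the ratio of 1 gene between libraries does not depend on its length apart from the pseudocount.

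The transfections were read from their targets and from cell type markers. YAP1 had 3.58 FPKM with IRF3 siRNA, 2.23 with YAP siRNA and 5.89 with control siRNA. Its count ratios to control were 0.608 (0.546 to 0.677) with IRF3 siRNA and 0.380 (0.334 to 0.431) with YAP siRNA. IRF3 had 2.90 FPKM with IRF3 siRNA, 3.86 with YAP siRNA and 3.55 with control siRNA, a count ratio of IRF3 siRNA to control of 0.818 (0.732 to 0.915). IRF3 overlaps BCL2L12 on the opposite strand, and with both genes summed that ratio was 0.983 (0.909 to 1.06), so the label of the IRF3 siRNA library was checked only weakly. In that library YAP1 had a lower ratio to control than IRF3 had. The word knockdown below names the siRNA given and not a measured loss of IRF3. None of 5 epithelial markers (EPCAM, CDH1, KRT8, KRT18 and KRT19) reached a mean of 1 FPKM. Of 3 mesenchymal markers, VIM, an intermediate filament, had 451 FPKM with IRF3 siRNA, 469 with YAP siRNA and 511 with control siRNA. FN1 had 6.16, 7.14 and 9.33 FPKM in that order, and CDH2 was near 0, with 7, 12 and 5 counts. Cells labelled as gastric cancer cells thus had the epithelial markers looked for at low levels only. Over 7 leukocyte markers the summed level was 2.63 FPKM with IRF3 siRNA, 2.35 with YAP siRNA and 2.28 with control siRNA, and PTPRC, which defines leukocytes, had 3, 3 and 1 counts in that order. Markers of plasmacytoid dendritic cells summed to 0 counts with IRF3 siRNA, 0 with YAP siRNA and 2 with control siRNA.

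Changes were read by a size rule on log2 ratios of FPKM plus a pseudocount of 1, which understates changes of low genes. It asks for a 2-fold ratio and a mean of at least 1 FPKM, which 18 of the 48 genes had. With IRF3 siRNA against control, 0 of the 18 genes were 2-fold higher, where 0.387% of all genes kept were, and 0 were 2-fold lower, where 0.612% of all genes were. With YAP siRNA against control, 0 of 18 were higher, against 0.351% of all genes, and 0 were lower, against 0.468%. With IRF3 siRNA against YAP siRNA, 0 of 18 were higher, against 0.297% of all genes, and 0 lower, against 0.315%. At such background shares, 18 genes would hardly hold a call, so these counts say little about the group. The median log2 ratio of the 18 genes was 0.047 with IRF3 siRNA over control, 0.012 with YAP siRNA over control and 0.043 with IRF3 siRNA over YAP siRNA. Over all genes kept it was -0.027, -0.022 and -0.0070 in that order. The medians over control are close to 0 and their sign depends on the processing: with the trend removed they were -0.0051 with IRF3 siRNA and -0.042 with YAP siRNA. Ratios above 0 were held by 11, 9 and 13 of the 18 genes. The knockdown comparisons share 1 control library, so their ratios to control are not independent of each other.

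**Figure D2:**
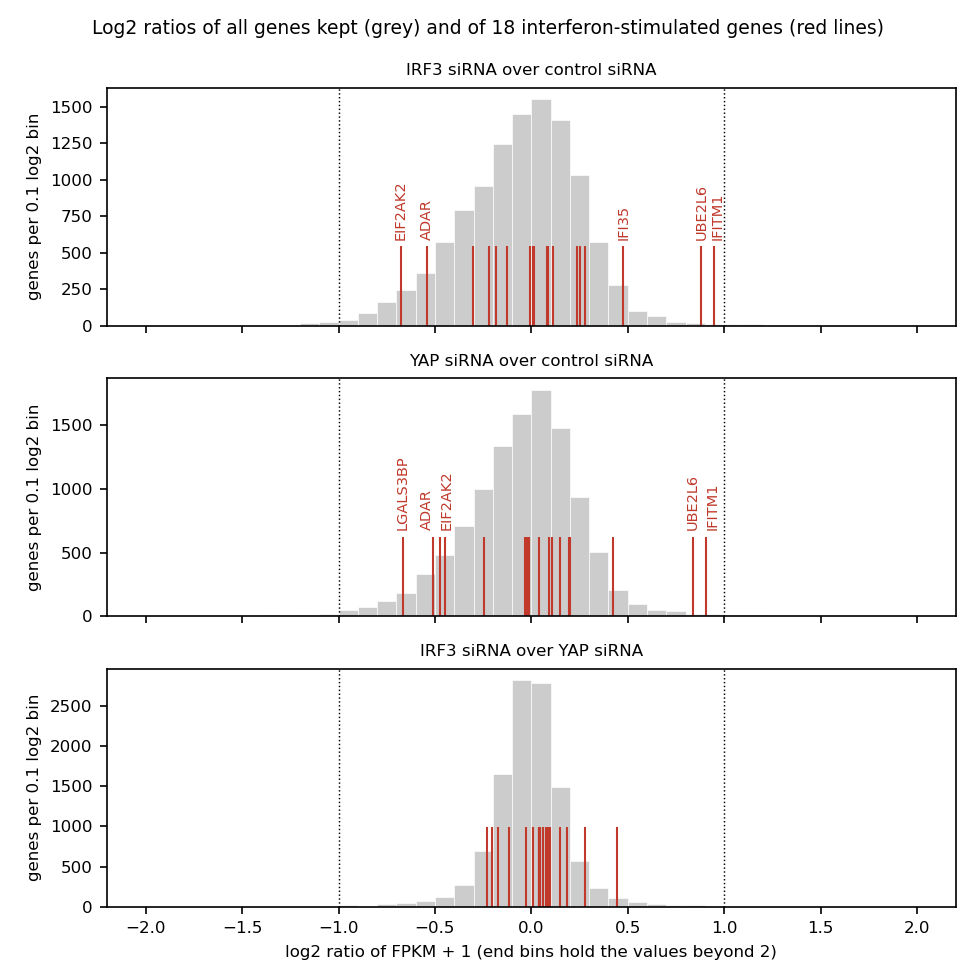
Number of genes (of 11103 kept) per 0.1 log2 bin of the ratio of FPKM plus 1, for IRF3 siRNA over control, YAP siRNA over control and IRF3 siRNA over YAP siRNA; red lines are the 18 measured interferon-stimulated genes and dotted lines mark a 2-fold ratio. All red lines lie between the dotted lines, with IFITM1 farthest to the right in both comparisons with control (0.95 and 0.91).

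Ratios of CPM, which need no pseudocount, were used for low genes, for all genes with at least 20 summed counts. Of the 37 genes of the group that had them, 0 were 2-fold higher with IRF3 siRNA than in the control (2.18% of all genes) and 4 were 2-fold lower (8.26% of all genes), namely PARP14, MX1, GBP1 and IFIT3. With YAP siRNA, 0 of 37 were 2-fold higher than in the control (2.16% of all genes) and 4 lower (7.45% of all genes), namely PARP14, HERC6, GBP1 and IFI44. Between IRF3 siRNA and YAP siRNA, 0 were higher with IRF3 siRNA (2.44% of all genes) and 2 lower (2.92% of all genes), GBP2 and MX1. All of these had means below 1 FPKM, where 2-fold ratios were more common, and the counting intervals of GBP1 spanned 1 in both comparisons with control. Of all genes at that level, 4.58% were higher and 18.6% lower with IRF3 siRNA over control, 4.45% higher and 16.8% lower with YAP siRNA over control, and 5.55% higher and 7.18% lower with IRF3 siRNA over YAP siRNA. The 4 of 19 low genes called (21.1%) in each comparison with control were near these shares.

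A counting interval that stayed above 1 was found for 7 of the 37 genes with IRF3 siRNA over control (18.9%, against 17.5% of all genes). It stayed below 1 for 13 (35.1%, against 31.8%). With YAP siRNA over control, 6 of 37 stayed above 1 (16.2%, against 16.0% of all genes) and 10 below (27.0%, against 29.5%). With IRF3 siRNA over YAP siRNA, 5 stayed above 1 (13.5%, against 12.8%) and 4 below (10.8%, against 13.2%). The group's shares lay close to those of all genes in each comparison.

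**Figure D3:**
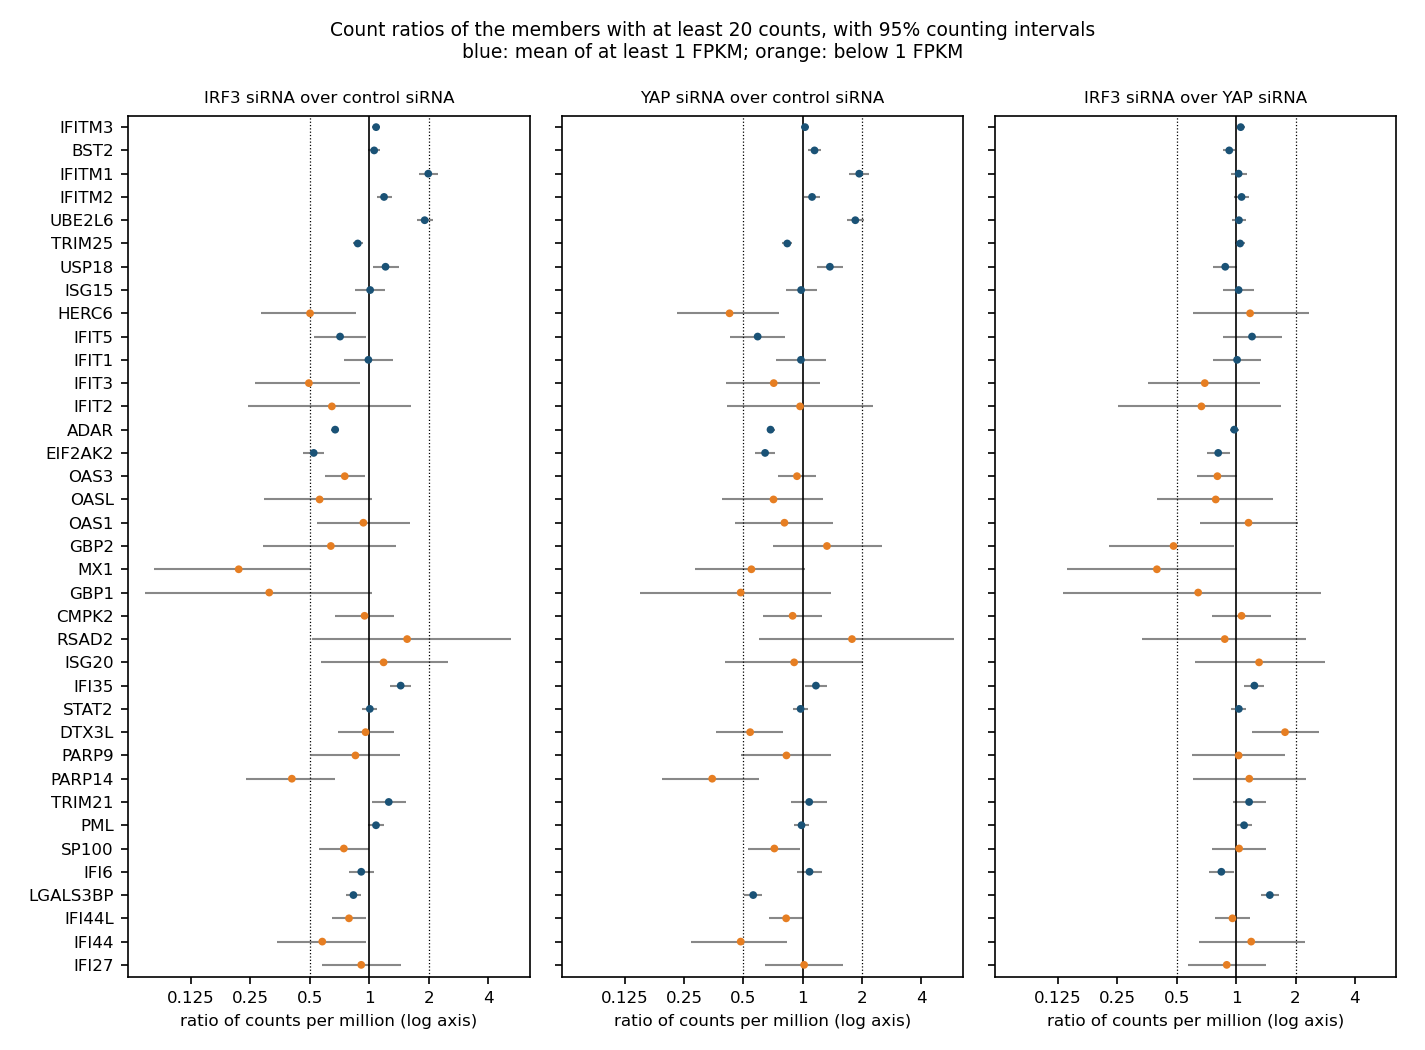
Ratio of CPM (log axis) with its 95% counting interval for the 37 genes with at least 20 summed counts, in the 3 comparisons; blue points have a mean of at least 1 FPKM, orange points less, and dotted lines mark 2-fold. Among the blue points IFITM1 and UBE2L6 lie farthest right in both comparisons with control, and the orange points have the widest intervals.

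The group that blocks virus entry and release held the highest levels, and IFITM1 had the highest ratio to control of the 18 measured genes in both knockdowns, just short of 2-fold. The IFITM proteins sit in membranes and hinder the fusion of virus with cell. IFITM1 (ENSG00000185885, chr11:313506-315272, hg38) had 29.8 FPKM with IRF3 siRNA and 28.9 with YAP siRNA, against 14.9 in the control, from 960, 898 and 450 counts. Both knockdown libraries were high and close to each other. The log2 ratio was 0.95 with IRF3 siRNA over control, a count ratio of 1.99 (1.78 to 2.23), and 0.91 with YAP siRNA over control, a count ratio of 1.94 (1.73 to 2.17). With the trend of ratios in level, exon length and GC content removed, the log2 ratios were 0.79 and 0.74. With TMM scaling of CPM they were 1.07 and 1.02, past 2-fold in both.

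IFITM2 (chr11:307631-315272) had 25.7 FPKM with IRF3 siRNA and 24.1 with YAP siRNA, against 21.6 in the control, and count ratios of 1.19 (1.09 to 1.30) and 1.12 (1.02 to 1.22). IFITM3 (chr11:319669-327537) had 116 FPKM with IRF3 siRNA and 110 with YAP siRNA, against 107 in the control. Its count ratios were 1.08 (1.03 to 1.14) and 1.03 (0.978 to 1.08), smaller than those of IFITM1. Removal of the trend turned the direction for IFITM3, to log2 ratios over control of -0.15 (IRF3 siRNA) and -0.20 (YAP siRNA), and for IFITM2 in the YAP siRNA library, to -0.035. IFITM1 made up 16.5% of the counts of the 3 IFITM genes with IRF3 siRNA (exact interval 15.6 to 17.5) and 16.9% with YAP siRNA (15.9 to 18.0), against 9.92% in the control (9.07 to 10.8). The share of IFITM2 was 19.86%, 19.61% and 19.96% in that order. The last exon of IFITM1, 351 bases or 32.5% of its merged exon length, is shared on the same strand with annotated transcripts of IFITM2 that read through. With both genes summed, the count ratio to control was 1.46 (1.36 to 1.56) with IRF3 siRNA and 1.39 (1.29 to 1.49) with YAP siRNA. The sources used here do not say how reads of the shared exon were assigned, and the 3 IFITM genes are also alike in sequence, so their split is uncertain.

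**Figure D4:**
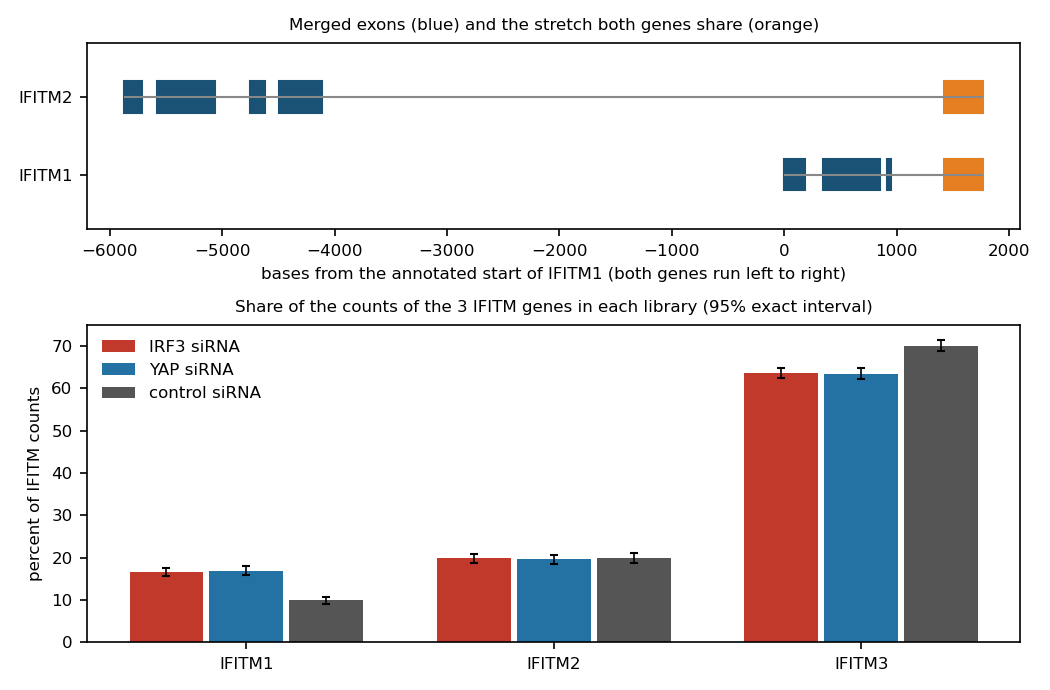
Top, merged exons of IFITM2 and IFITM1 in bases from the start of IFITM1, with the 351 shared bases in orange; bottom, share of the counts of the 3 IFITM genes (percent, bars from 0, exact 95% interval) in the 3 libraries. IFITM1 holds 16.5% and 16.9% in the knockdown libraries and 9.92% in the control, while IFITM2 stays between 19.61% and 19.96%.

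BST2 (chr19:17402939-17405648), also called tetherin, which holds budding virus on the cell surface, had 66.5 FPKM with IRF3 siRNA and 72.1 with YAP siRNA, against 62.8 in the control. YAP siRNA was highest, with a count ratio to control of 1.15 (1.07 to 1.24), and the interval with IRF3 siRNA spanned 1 (0.984 to 1.14). Without the trend, the log2 ratios of BST2 to control were -0.19 with IRF3 siRNA and -0.049 with YAP siRNA, below 0 where the values as deposited gave 0.082 and 0.20. Summed over the 4 genes of the group, the level was 238 FPKM with IRF3 siRNA and 235 with YAP siRNA, against 206 in the control.

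Conjugation of ISG15, a ubiquitin-like protein that is attached to other proteins after interferon, had more RNA of its E2 enzyme in both knockdowns and nearly equal levels of ISG15 itself. UBE2L6 (ENSG00000156587, chr11:57551656-57568284), the E2 enzyme that carries ISG15, had 23.8 FPKM with IRF3 siRNA and 23.0 with YAP siRNA, against 12.5 in the control, from 1348, 1256 and 659 counts. Both knockdown libraries were again high and alike, with log2 ratios of 0.88 and 0.84 and count ratios of 1.91 (1.74 to 2.10) and 1.85 (1.68 to 2.03). After removal of the trend the log2 ratios were 0.69 and 0.67, and with TMM scaling they were 1.02 and 0.96. ISG15 (ENSG00000187608, chr1:1001138-1014541) had 8.50 FPKM with IRF3 siRNA and 8.26 with YAP siRNA, against 8.42 in the control. Its count ratios were 1.01 (0.845 to 1.21) and 0.982 (0.819 to 1.18), and no difference was detectable within these bounds at this depth. Without the trend the log2 ratio with IRF3 siRNA over control was -0.20, where the deposited FPKM gave 0.013.

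USP18, the protease that removes ISG15 and also restrains the interferon receptor, had 12.4 FPKM with IRF3 siRNA and 14.1 with YAP siRNA, against 10.3 in the control. Both knockdowns were higher than the control, with count ratios of 1.21 (1.04 to 1.41) and 1.37 (1.18 to 1.596). USP41, a near-identical copy of USP18, had 19 counts with IRF3 siRNA, 35 with YAP siRNA and 32 with control siRNA, so the split of reads between the copies is uncertain. TRIM25, a ubiquitin and ISG15 ligase that helps the sensor RIG-I, had 14.5 FPKM with IRF3 siRNA and 13.8 with YAP siRNA, against 16.5 in the control, and count ratios of 0.874 (0.827 to 0.925) and 0.835 (0.788 to 0.884). HERC5, the main ISG15 ligase of human cells, had 1 count with IRF3 siRNA and 0 counts with YAP siRNA and in the control. HERC6, its relative, had 22 counts with IRF3 siRNA and 18 with YAP siRNA, against 41 in the control. UBA7, the E1 enzyme of the pathway, named after its values were seen, had 79 counts with IRF3 siRNA and 102 with YAP siRNA, against 63 in the control. Its count ratios were 1.17 (0.830 to 1.66) and 1.57 (1.14 to 2.18). RNA of the modifier, its E1 and E2 enzymes, TRIM25 and USP18 was thus detected in each library, with HERC5 near 0.

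The IFIT proteins bind foreign RNA, such as RNA that lacks the cap methylation of host messages. IFIT1 had 1.11 FPKM with IRF3 siRNA and 1.10 with YAP siRNA, against 1.12 in the control, from 105, 100 and 99 counts, nearly equal in the 3 libraries. With the trend removed its log2 ratios to control were 0.23 with IRF3 siRNA and 0.18 with YAP siRNA. IFIT5 had 1.33 FPKM with IRF3 siRNA and 1.11 with YAP siRNA, against 1.87 in the control, with count ratios of 0.711 (0.525 to 0.961) and 0.591 (0.426 to 0.814). IFIT3 had 18 counts with IRF3 siRNA, 25 with YAP siRNA and 34 with control siRNA, a count ratio of 0.494 (0.263 to 0.900) with IRF3 siRNA. Both genes were lowest in a knockdown library, IFIT5 with YAP siRNA and IFIT3 with IRF3 siRNA, at few counts. IFIT2 had 9, 13 and 13 counts in the same order. IFIT2 shares 65 exon bases with LIPA on the opposite strand, whose counts were 1393 with IRF3 siRNA, 3579 with YAP siRNA and 3342 with control siRNA. Summed over the 4 IFIT genes, the count ratio to control was 0.789 (0.654 to 0.951) with IRF3 siRNA and 0.780 (0.645 to 0.943) with YAP siRNA.

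Among the genes that sense or modify double-stranded RNA, the kinase EIF2AK2 and the editing enzyme ADAR were lower in both knockdown libraries. EIF2AK2 (ENSG00000055332, chr2:37099210-37157065) encodes PKR, which stops translation when it binds double-stranded RNA. It had 1.91 FPKM with IRF3 siRNA and 2.36 with YAP siRNA, against 3.66 in the control, from 406, 482 and 725 counts. The libraries stood in that order with intervals that excluded 1 in all 3 comparisons, with count ratios of 0.523 (0.462 to 0.591) with IRF3 siRNA over control, 0.645 (0.573 to 0.724) with YAP siRNA over control and 0.811 (0.709 to 0.927) with IRF3 siRNA over YAP siRNA. Its log2 ratios to control of -0.68 and -0.47 were -0.34 and -0.18 with the trend removed. EIF2AK2 has 10753 merged exon bases and a GC content of 38.7%, where the 18 measured genes had medians of 2163 bases and 53.9%.

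ADAR (ENSG00000160710, chr1:154582062-154627999), which turns adenosine into inosine in double-stranded RNA, had 13.3 FPKM with IRF3 siRNA and 13.6 with YAP siRNA, against 19.8 in the control, from 3096, 3048 and 4303 counts. The knockdown libraries lay together below the control, with count ratios of 0.672 (0.641 to 0.704) and 0.687 (0.655 to 0.720). With the trend removed the log2 ratios of -0.54 and -0.51 became -0.37 and -0.35. The OAS genes make 2′-5′-linked oligoadenylates from ATP when they bind double-stranded RNA. OAS3 had 0.807 FPKM with IRF3 siRNA and 1.01 with YAP siRNA, against 1.07 in the control, with a count ratio of 0.751 (0.595 to 0.947) for IRF3 siRNA over control. OAS1 had 30, 25 and 30 counts and OAS2 1, 0 and 2 counts with IRF3 siRNA, YAP siRNA and control siRNA. OASL, a relative without synthase activity, had 18, 22 and 30 counts in that order.

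The GTPases of the Mx and GBP families, which trap viral particles and attack pathogen compartments, were near 0. MX1 (ENSG00000157601, chr21:41420304-41459214) had 7 counts with IRF3 siRNA and 17 with YAP siRNA, against 30 in the control. It was lowest with IRF3 siRNA, with a count ratio to control of 0.218 (0.0808 to 0.506), while the interval with YAP siRNA spanned 1 (0.549, 0.284 to 1.03). IRF3 siRNA over YAP siRNA gave 0.396 (0.139 to 1.01), so the knockdowns could not be told apart in MX1 by counting error. GBP1 had 4, 6 and 12 counts, GBP2 13, 26 and 19 and MX2 0, 2 and 1 with IRF3 siRNA, YAP siRNA and control siRNA. The count ratios of GBP1 to control were 0.311 (0.0732 to 1.03) with IRF3 siRNA and 0.485 (0.149 to 1.40) with YAP siRNA, and both intervals spanned 1. Summed over the 4 genes, 24 counts with IRF3 siRNA and 51 with YAP siRNA stood against 62 in the control. The summed ratio was 0.361 (0.216 to 0.587) with IRF3 siRNA over control and 0.453 (0.267 to 0.750) with IRF3 siRNA over YAP siRNA. With YAP siRNA over control it was 0.798 (0.540 to 1.17), an interval that spanned 1.

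Enzymes that deplete or damage viral nucleotides and RNA were low in all 3 libraries. CMPK2, a mitochondrial nucleotide kinase, had 73 counts with IRF3 siRNA and 66 with YAP siRNA, against 72 in the control. RSAD2, or viperin, which makes a chain-terminating nucleotide, had 10, 11 and 6 counts, and the exonuclease ISG20 had 19, 14 and 15 counts, in that order. The summed ratio of the 3 genes to control was 1.02 (0.765 to 1.37) with IRF3 siRNA and 0.949 (0.703 to 1.28) with YAP siRNA.

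Of the 6 genes of signalling and DNA sensing, STAT2 and IFI35 had means of at least 1 FPKM. STAT2, a subunit of the factor that binds the response element, had 6.87 FPKM with IRF3 siRNA and 6.66 with YAP siRNA, against 6.82 in the control, with log2 ratios of 0.0084 and -0.031. IFI35, an interferon-induced leucine zipper protein, had 10.7 FPKM with IRF3 siRNA and 8.67 with YAP siRNA, against 7.43 in the control. It was highest with IRF3 siRNA and lowest in the control, with count ratios of 1.44 (1.28 to 1.64) and 1.17 (1.02 to 1.33) to control and 1.24 (1.10 to 1.39) for IRF3 siRNA over YAP siRNA. With the trend removed its log2 ratios were 0.30 with IRF3 siRNA and 0.053 with YAP siRNA.

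PARP14, a mono-ADP-ribosyltransferase, had 23 counts with IRF3 siRNA and 19 with YAP siRNA, against 53 in the control. It was 2-fold lower in both, at 0.405 (0.237 to 0.673) and 0.348 (0.194 to 0.597). DTX3L, a ubiquitin ligase that works in a complex with PARP9, had 79 counts with IRF3 siRNA and 43 with YAP siRNA, against 77 in the control. Only the YAP siRNA library was low, with a count ratio to control of 0.541 (0.364 to 0.796), and IRF3 siRNA over YAP siRNA was 1.77 (1.21 to 2.63). PARP9 had 31, 29 and 34 counts, and shares 217 exon bases with DTX3L on the opposite strand. IFI16, a sensor of DNA, had 3, 2 and 7 counts in the same order.

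TRIM21, which directs antibody-coated virus to the proteasome, had 6.06 FPKM with IRF3 siRNA and 5.21 with YAP siRNA, against 4.82 in the control, with count ratios of 1.26 (1.03 to 1.53) and 1.08 (0.876 to 1.33). PML, the scaffold of nuclear bodies, had 2.92 FPKM with IRF3 siRNA and 2.66 with YAP siRNA, against 2.70 in the control, log2 ratios of 0.084 and -0.014. SP100, a second nuclear body protein, had 86 counts with IRF3 siRNA and 80 with YAP siRNA, against 108 in the control, with count ratios of 0.743 (0.553 to 0.996) and 0.718 (0.531 to 0.968). The interval of TRIM21 stayed above 1 with IRF3 siRNA and spanned 1 with YAP siRNA, while those of SP100 stayed below 1 in both. TRIM22 had 3 counts in each library. SAMD9 had 3, 0 and 3 counts and SAMD9L 3, 2 and 6 with IRF3 siRNA, YAP siRNA and control siRNA. The chemokines CXCL10 and CXCL11, which attract T cells, were nearly undetected. CXCL10 had 3, 0 and 0 counts and CXCL11 had 0, 0 and 1 in the same order.

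Among the remaining induced genes, LGALS3BP, a secreted glycoprotein that binds galectins, was lowest with YAP siRNA. LGALS3BP (ENSG00000108679, chr17:78971238-78980109) had 4.50 FPKM with IRF3 siRNA and 3.03 with YAP siRNA, against 5.41 in the control, from 894, 581 and 1004 counts. Its log2 ratio of -0.67 with YAP siRNA over control, a count ratio of 0.561 (0.506 to 0.622), was the lowest ratio of the 18 measured genes in that comparison and became -0.71 with the trend removed. With IRF3 siRNA over control the count ratio was 0.831 (0.759 to 0.911), and with IRF3 siRNA over YAP siRNA it was 1.48 (1.33 to 1.65), the largest ratio of the 18 genes between the knockdowns.

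IFI6, a membrane protein that limits flavivirus replication, had 11.8 FPKM with IRF3 siRNA and 14.1 with YAP siRNA, against 12.999 in the control. Its count ratios to control were 0.911 (0.786 to 1.06) and 1.08 (0.938 to 1.25), intervals that both spanned 1, and IRF3 siRNA over YAP siRNA was 0.841 (0.728 to 0.971). With the trend removed the log2 ratio of YAP siRNA over control was -0.082, where the deposited FPKM gave 0.11. IFI44L had 0.873 FPKM with IRF3 siRNA and 0.912 with YAP siRNA, against 1.11 in the control, and its relative IFI44 had 26, 21 and 42 counts in that order. IFI44 was low in both, at 0.578 (0.340 to 0.965) and 0.485 (0.273 to 0.837) of the control. IFI27 had 40, 43 and 41 counts, nearly equal in the 3 libraries. In such bulk RNA, fewer cells that express a gene and less of its RNA per cell cannot be told apart.

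The 19 low genes with at least 20 counts leaned below the control in both knockdowns, as did low genes in general. Together they had 830 counts with IRF3 siRNA and 828 with YAP siRNA, against 1046 in the control, ratios of 0.741 (0.675 to 0.812) and 0.768 (0.700 to 0.842). Ratios below 1 were held by 17 of the 19 (89.5%) with IRF3 siRNA, against 70.3% of all genes of that level, and by 16 (84.2%) with YAP siRNA, against 68.6%. The median ratio to control was 0.743 with IRF3 siRNA, against 0.778 over all such genes, and 0.808 with YAP siRNA, which was also the value over all such genes.

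The signal chain above these genes was read from lists of ligands, receptors and regulators. Of 21 interferon genes, 20 had 0 counts in all 3 libraries, and IFNK had 1 count with IRF3 siRNA. A count of 0 allows up to 0.215 CPM in the control, so any traces of interferon RNA below that level could have been missed at this depth. Of 15 receptor, JAK, STAT and IRF genes, 12 had a mean of at least 1 FPKM and 0 passed the 2-fold rule in any comparison. At most 0.612% of all genes kept passed it in either direction, so 0 of 12 says little about the list. The log2 ratios of the 12 genes to control were below 0 for 10 with IRF3 siRNA and 9 with YAP siRNA, with medians of -0.15 and -0.13. Among all genes kept, 53.9% and 53.4% were below 0. JAK1, the kinase shared by all interferon receptors, had 4.04 FPKM with IRF3 siRNA and 4.86 with YAP siRNA, against 8.75 in the control. Its count ratios were 0.461 (0.410 to 0.519) and 0.555 (0.496 to 0.620), and the log2 ratios -0.95 and -0.74. IFNAR1, a chain of the type I interferon receptor, had 1.27 FPKM with IRF3 siRNA and 1.82 with YAP siRNA, against 2.65 in the control, log2 ratios of -0.68 and -0.37. IRF2, a relative of IRF3, had 4.04 FPKM with IRF3 siRNA and 4.17 with YAP siRNA, against 5.49 in the control. All 3 of these genes were highest in the control. By count ratio JAK1 and IFNAR1 (0.480, 0.384 to 0.598) were more than 2-fold lower with IRF3 siRNA, with intervals that also hold smaller changes. By that rule 8.26% of all genes were lower. JAK1 has 6317 merged exon bases and 46.2% GC and IFNAR1 6301 and 42.3%, where all genes kept had medians of 4134.5 and 50.8%. No ratio with the trend removed is given for JAK1 or IFNAR1. JAK2, named after its values were seen, had 29 counts with IRF3 siRNA and 49 with YAP siRNA, against 106 in the control, ratios of 0.255 (0.163 to 0.388) and 0.448 (0.313 to 0.635). Its mean was below 1 FPKM, where 18.6% of all genes were 2-fold lower with IRF3 siRNA and 16.8% with YAP siRNA. JAK2 has 6170 merged exon bases and 39.2% GC, and no ratio with the trend removed is given for it.

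**Figure D5:**
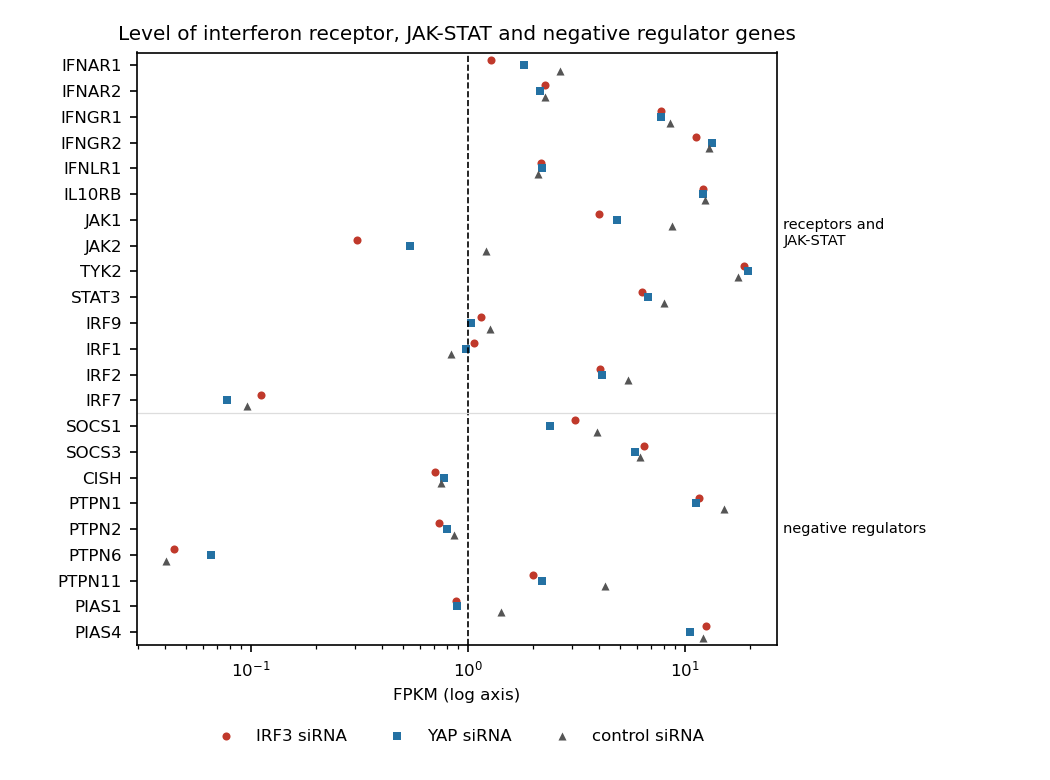
FPKM (log axis) of 14 receptor, JAK, STAT and IRF genes and 9 negative regulators, with 1 point for each of the 3 libraries and a dashed line at 1 FPKM. JAK1, JAK2, IFNAR1 and PTPN11 have both knockdown libraries left of the control, while TYK2, IL10RB and IFNAR2 lie close together.

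Of 9 negative regulators, 6 were measured and 0 passed the 2-fold rule, which at most 0.612% of all genes kept passed in either direction. The median log2 ratio of the 6 genes to control was -0.31 for IRF3 siRNA and -0.38 for YAP siRNA. Over all genes kept it was -0.027 and -0.022. PTPN11, a phosphatase that acts on STAT proteins, had 1.98 FPKM with IRF3 siRNA and 2.19 with YAP siRNA, against 4.30 in the control, log2 ratios of -0.83 and -0.73. By count ratio it was more than 2-fold lower with IRF3 siRNA, at 0.461 (0.394 to 0.539), an interval that also holds smaller changes. With YAP siRNA the ratio was 0.510 (0.437 to 0.594). PTPN11 has 7023 merged exon bases and 42.2% GC, and no ratio with the trend removed is given for it. SOCS1, an inhibitor of the JAK kinases, had 3.11 FPKM with IRF3 siRNA and 2.38 with YAP siRNA, against 3.92 in the control. PTPN1 and PIAS1 were also lower in both, with log2 ratios of -0.36 and -0.37 with IRF3 siRNA and -0.40 and -0.36 with YAP siRNA. Of 34 further interferon-induced genes, 14 were measured and 0 passed the rule, again against at most 0.612% of all genes kept in either direction. In each knockdown over control 10 of 14 were below 0, with medians of -0.17 and -0.15. Among all genes kept, 53.9% were below 0 with IRF3 siRNA and 53.4% with YAP siRNA. LY6E, a membrane protein that restricts coronavirus entry, had 26.4 FPKM with IRF3 siRNA and 20.4 with YAP siRNA, against 17.8 in the control. ZC3HAV1, which encodes the zinc finger antiviral protein ZAP, had 1.30 FPKM with IRF3 siRNA and 1.42 with YAP siRNA, against 2.16 in the control. TDRD7 had 3.49 FPKM with IRF3 siRNA and 3.18 with YAP siRNA, against 4.61 in the control. LY6E thus stood higher in both knockdowns, as IFITM1 and UBE2L6 did, and ZC3HAV1 and TDRD7 stood lower.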

How the data were processed

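RNA sequencing data of 3 HGC-27 libraries were used as deposited. The authors' table gives FPKM values and raw counts per gene, per the file headers; reads were aligned with TopHat2 version 2.0.9 to hg38, per the submitters' processing notes. Not given in the sources used here are the gene counter, annotation release, strand setting and treatment of reads that map to several places. Gene lengths implied by the deposited FPKM and counts equalled, within 1%, the sum of all distinct annotated exons of GENCODE 29 in 87.1% of 14716 genes and the merged exon length in 13.2%, and the sum of distinct exons counts overlapping exons more than once; 44 of the 48 genes had identical coordinates there.

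Log2 ratios used FPKM plus 1 for the 11103 genes with a mean of at least 1 FPKM, with a 2-fold size rule. A second rule took a 2-fold ratio of CPM among genes with at least 20 summed counts. Count ratios carry exact Clopper-Pearson 95% intervals, for counting error only. With 1 library per group there is no test and no p-value. TMM-scaled CPM came from edgeR 4.0.16. The trend was removed with additive splines of 4 degrees of freedom in level, exon length and GC content. They were fitted over the 11066 genes kept that had a known exon length and GC content. The FPKM rule and the counting interval were tested on simulated counts with 200 genes changed well past 2-fold, none of them low, and with counting noise alone. Such a test is easy to pass and does not cover variation between cultures. The rule on CPM ratios, which made the calls among low genes, was not tested in this way.

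All 48 genes could be named; of each other list, up to 4 genes with the largest absolute log2 ratio and a mean of at least 1 FPKM were named, with IRF3, YAP1 and genes whose exons overlap a member. A few genes that this rule takes are not reported here. The genes and lists were chosen with earlier results of these data known. Merged exon lengths, a minimum of 50 counts and TMM scaling of the count ratios were added after seeing the data. Promoter windows are RefSeq's on GRCh38.p14. R 4.3.3, Python 3.11.15, patsy 1.0.2, pandas 2.3.3, scipy 1.17.1 and numpy 2.4.6 were used.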

Additional observations from a re-analysis of the deposited data

How the results depend on the processing

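No paired analysis was possible because each group has 1 library. TMM scaling put IFITM1 and UBE2L6 past 2-fold with IRF3 siRNA over control, 2 of 34 genes, against 0.569% of all genes. By count ratios they were 2 of 37, against 2.69%. With YAP siRNA over control IFITM1 alone passed, 1 of 34 (0.528% of all genes) and 1 of 37 by count ratios (2.71%). TMM scaling also gave 1 lower gene of 34, MX1, with IRF3 siRNA over control (2.83% of all genes). By count ratios 2 of 37 were lower with YAP siRNA over control (5.89% of all genes), against 4 without TMM scaling. A 1.5-fold threshold called 2 of 18 genes higher in each comparison with control, IFITM1 and UBE2L6, where 1.59% of all genes were. It called 1 of 18 lower, EIF2AK2 with IRF3 siRNA (5.88% of all genes) and LGALS3BP with YAP siRNA (4.64%). These lower calls were near the shares of all genes. Summing overlapping genes gave 1 of 19 lower with IRF3 siRNA over control (0.485% of all) and 1 of 19 over YAP siRNA (0.198%). In both it was IFIT2 with the counts of LIPA. Some settings keep more of the 48 genes, so their medians cover other genes than the 18 and are not directly comparable. The median log2 ratio with IRF3 siRNA over control was -0.024 over 48 genes with no filter and -0.028 over 34 with TMM scaling. Over the 18 genes it was -0.0051 with the trend removed, against 0.047. With YAP siRNA over control the median was -0.020 over 48 genes with no filter and -0.047 over 34 with TMM scaling. It was -0.022 over 22 genes per merged exon length. Over the 18 genes it was -0.042 with the trend removed, against 0.012. At a level of 0.1 FPKM, 35 genes counted as present with IRF3 siRNA, 33 with YAP siRNA and 35 with control siRNA, and at 5 FPKM 13 did in the control. Where a setting does not name the genes it adds, the cause was not tested. Among single gene ratios, 414 kept their side of 2-fold and 3 passed it (IFITM1 in both comparisons with control and UBE2L6 with IRF3 siRNA, under TMM scaling). Of these 417 ratios, 20 changed sign, 12 with the trend removed, 5 with TMM scaling and 3 with centring, all short of 2-fold and with log2 ratios as deposited of 0.20 or less in size. Over all genes, a pseudocount of 0.1 raised the 2-fold calls with IRF3 siRNA over control to 96 higher and 284 lower, against 43 and 68. Depth limits the 11 genes with fewest counts, for which no ratio was read.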
